A study of Homo sapiens with 30 samples.

Results

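LX2, an established cell line derived from human hepatic stellate cells in their activated state, was exposed to betacellulin (BTC) alone, and the transcripts of the BTC-treated cultures were compared with those of cultures given vehicle only. The Veh+BTC group received vehicle in place of a fatty acid and then 20 ng/ml of recombinant human BTC for 72 h in medium with 1% serum, and the Veh+Veh group received vehicle at both steps. Each group held 5 libraries, 1 from each of 5 experiments, so 10 of the 30 libraries of the series entered the comparison, and libraries were paired by their experiment number. The other 20 libraries came from cells pretreated with oleic acid (OLA) or docosahexaenoic acid (DHA), each at 50 µM and given for 96 h, with or without the same BTC step. They shared the estimate of the spread, and the BTC response after OLA or DHA is given where it is set beside that of BTC alone. All cultures were of a single line, the labels name no introduced mutation, and they do not say whether the experiments used separate passages. P-values therefore measure the spread between these cultures.

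Betacellulin is a secreted growth factor of the epidermal growth factor family. It binds EGFR and ERBB4, which pair with each other or with ERBB2 and ERBB3, and the activated receptors recruit adaptors that switch on the RAS, RAF, MEK and ERK kinase chain and the PI3K and AKT pathway. ERK activity induces transcription factors of the immediate early class, cyclin D1, and feedback inhibitors such as the dual specificity phosphatases and the Sprouty proteins. In liver, stellate cells are the main producers of fibrillar collagen in scarring, and growth factors of this family are known as mitogens for mesenchymal cells. The libraries record a single time, 72 h after BTC was added.

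RNA was counted per gene with a 3′ tag kit, whose reads lie near the polyadenylated end of the transcript, so levels are given in CPM (reads of a gene per 1000000 reads of its library) without a length correction. The 10 libraries held 2569815 to 9490142 reads, and the deepest and the shallowest were both Veh+Veh libraries (experiments 1 and 3). The level that a count of 0 still allows, 3 reads, corresponded to 0.316 to 1.17 CPM. Genes with a count numbered 16330 to 18238 per Veh+BTC library and 14504 to 19104 per Veh+Veh library. The summed level of 18 stellate and fibroblast markers was 2945 to 4923 CPM in Veh+BTC and 3034 to 6107 CPM in Veh+Veh, led by COL1A1, with DES and LRAT at 0 in all 10 libraries. The 12 hepatocyte markers summed to 2.28 to 9.28 CPM in Veh+BTC and 0.275 to 7.90 CPM in Veh+Veh, with ALB, APOA2, TTR and HNF4A at 0 in all 10. The 11 endothelial markers summed to 7.47 to 21.9 CPM in Veh+BTC and 10.2 to 19.1 CPM in Veh+Veh, with STAB2, LYVE1, CLEC4G and ERG at 0 in all 10. The 12 leukocyte markers summed to 17.5 to 63.5 CPM in Veh+BTC and 15.4 to 70.4 CPM in Veh+Veh, with CD3E, MS4A1 and NKG7 at 0 in all 10. The 12 epithelial markers summed to 168.7 to 719 CPM in Veh+BTC and 167.6 to 793.8 CPM in Veh+Veh, led by KRT18, with KRT5, KRT14 and ESRP1 at 0 in all 10. No transcript checks the addition of the protein itself: BTC mRNA was at 0 in all 5 Veh+BTC libraries and reached 0.316 CPM in Veh+Veh 1 alone among the Veh+Veh libraries.

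No gene passed the test at 72 h after BTC alone. Of 15137 genes tested, limma called 0 at an adjusted p under 0.05 (0% of all tested), and the smallest adjusted p was 0.445. At an unadjusted p under 0.05 there were 1539 genes (10.2% of all tested), 551 higher in Veh+BTC (3.64%) and 988 lower in Veh+BTC (6.53%). The edgeR quasi-likelihood test on reads recovered from the CPM also called 0, and its 1318 genes at an unadjusted p under 0.05 divided the other way, with 717 higher and 601 lower. DESeq2 called 1 gene, RN7SL1, described with the genes of smallest p, and had 1606 genes at an unadjusted p under 0.05, 927 higher and 679 lower. The balance of higher against lower values among genes short of the threshold therefore depended on the tool and is not a result. The median difference over all genes tested was -0.02 on the log2 scale. CPM are shares of a library of bulk RNA, so fewer cells of a type and less RNA per cell cannot be told apart.

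The fitted intervals, with a spread pooled over all 30 libraries, bounded the differences of many genes. Differences, Veh+BTC minus Veh+Veh, are on the log2(CPM + 1) scale throughout, and a difference of 1 is a 2-fold change of CPM + 1, which understates the change in level of genes with few CPM. Of the 10116 genes with a mean of at least 5 CPM, 7208 (71.3%) had a 95% interval that lay within 1 of 0, so that a change of CPM + 1 beyond 2-fold in either direction lay outside the interval. Near 5 CPM such an interval still holds changes in level somewhat beyond 2-fold. The median half-width of the interval in these genes was 0.55. Over genes with a mean of at least 20 CPM, the SD of the BTC difference per experiment ran from 0.268 to 1.04 after vehicle. It ran from 0.248 to 0.69 after OLA and from 0.37 to 0.631 after DHA. For genes that varied more between the vehicle pairs than the pooled spread allows, the interval may be too narrow. Interval widths from the 10 libraries alone were not computed. Intervals are not adjusted for the number of genes, so one that leaves out 0 is no call, and a p that misses the threshold does not show that the groups were equal. In the remainder the interval reached a 2-fold change of CPM + 1 or more. In 5 of 5 experiments 527 genes (3.48% of all tested) had the higher value in Veh+BTC, and 360 genes (2.38%) had the lower value there. All 5 Veh+BTC libraries lay above all 5 Veh+Veh libraries for 17 genes (0.112%) and below them for 16 genes (0.106%).

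The receptors for BTC were expressed at unequal levels, and their transcripts differed between groups by less than the test could resolve. EGFR, the main receptor for BTC, was at 31.4, 49.4, 18.6, 15.2 and 16.8 CPM in Veh+BTC 1 to 5, against 64.8, 41.2, 18.7, 15.8 and 28.5 CPM in Veh+Veh 1 to 5. The groups overlapped, and EGFR was lower in Veh+BTC in 4 of 5 experiments, with a difference of -0.31 (95% interval -0.83 to 0.21, limma adjusted p = 0.691). ERBB2, the partner receptor that binds no ligand of its own, was at 26.2, 33.0, 64.1, 33.1 and 54.2 CPM in Veh+BTC and at 31.0, 36.8, 37.7, 35.4 and 36.2 CPM in Veh+Veh. Its Veh+Veh libraries lay close together, whereas Veh+BTC 3 and Veh+BTC 5 were higher than every Veh+Veh library and the other Veh+BTC libraries were lower than their partners. The ERBB2 difference was 0.17 (95% interval -0.29 to 0.63, limma adjusted p = 0.828). ERBB3, a receptor with little kinase activity, averaged 0.77 ± 0.881 CPM in Veh+BTC and 1.63 ± 1.05 CPM in Veh+Veh (SD, n = 5 each), which is near the floor. ERBB4, the other receptor for BTC, was at 0 in all 10 libraries, which at these depths allows up to 0.316 to 1.17 CPM per library.

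Ligands of the family were scarce apart from HBEGF. HBEGF, the heparin-binding ligand of EGFR and ERBB4, averaged 25.5 ± 6.08 CPM in Veh+BTC and 30.0 ± 5.58 CPM in Veh+Veh (SD, n = 5 each), and its difference was -0.23 (95% interval -0.76 to 0.30, limma adjusted p = 0.789). NRG1, a ligand of ERBB3 and ERBB4, averaged 5.30 ± 3.43 CPM in Veh+BTC and 6.84 ± 3.22 CPM in Veh+Veh. AREG averaged 0.497 ± 0.62 CPM in Veh+BTC and 1.09 ± 0.929 CPM in Veh+Veh, with 2 Veh+BTC libraries and 1 Veh+Veh library at 0. EREG and TGFA were too low to be tested, at under 1 CPM in each of the 10 libraries. Of 8 tested ligands and sheddases, 0 were called and 0 had an unadjusted p under 0.05.

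**Figure D1:**
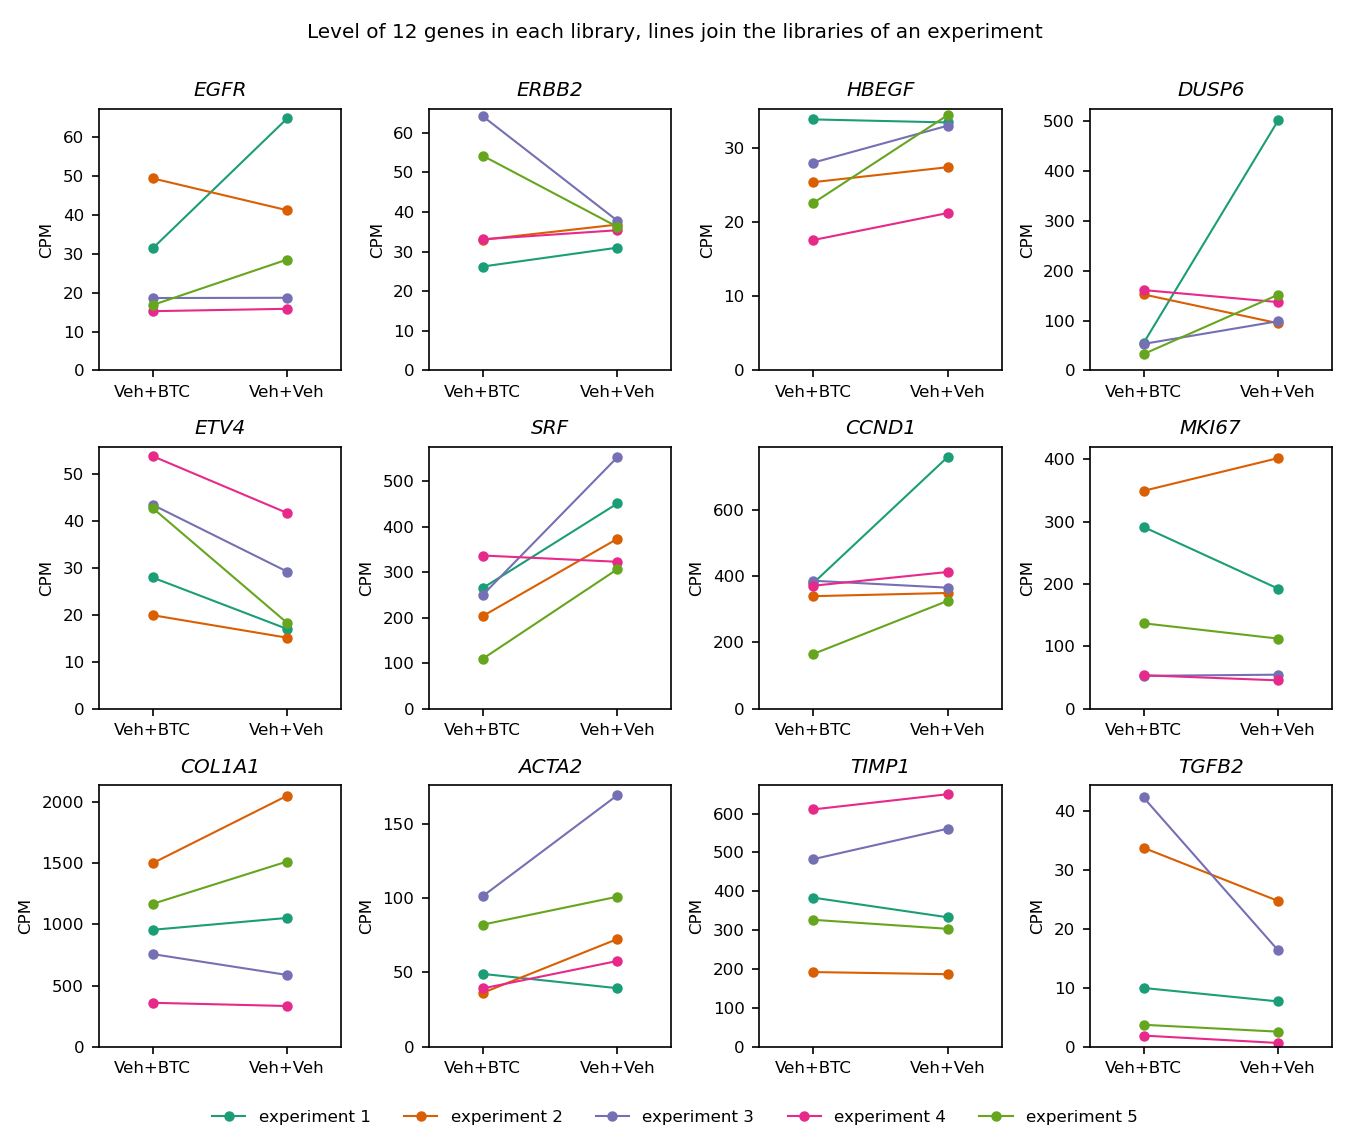
Level in CPM of 12 genes of the ErbB, ERK, cell cycle and matrix programmes in each of the 5 Veh+BTC libraries (left in each panel) and the 5 Veh+Veh libraries (right), with a line joining both libraries of an experiment; each vertical axis starts at 0. DUSP6 and CCND1 have a single high point, 502 and 760 CPM in Veh+Veh 1, ETV4 and TGFB2 slope down from Veh+BTC to Veh+Veh in every experiment, and none of the 12 passed the test.

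Adaptors and kinases below the receptors contained members with wide differences between experiments and none that passed the test. Of 28 tested adaptors, kinases and negative regulators, 0 were called, with 1 higher and 6 lower at an unadjusted p under 0.05, and a median difference of -0.13 against -0.02 over all genes tested. These 7 were 25% of the list, against 10.2% of all genes tested. In experiments 1 to 5 the list median was -0.96, 0.44, -0.20, 0.06 and -0.14. AKT1, the kinase downstream of PI3K, was at 7.13, 50.3, 45.2, 105 and 7.06 CPM in Veh+BTC and at 93.6, 16.5, 267, 90.3 and 81.3 CPM in Veh+Veh. AKT1 was low in Veh+BTC 1 and Veh+BTC 5 and in Veh+Veh 2, and the groups overlapped, with a difference of -1.53 (95% interval -2.72 to -0.34, limma adjusted p = 0.445), or -2.30 without experiment 2. MAP2K1, which encodes the ERK kinase MEK1, was at 0.57, 7.37, 4.43, 7.14 and 1.25 CPM in Veh+BTC and at 20.5, 4.94, 18.3, 8.03 and 6.27 CPM in Veh+Veh, a difference of -1.39 (95% interval -2.41 to -0.38, limma adjusted p = 0.445). Its value in Veh+BTC 1 lay below the floor of that library, 0.855 CPM. MAPK3, which encodes ERK1, was at 118, 91.4, 158, 147 and 156 CPM in Veh+BTC and at 42.1, 89.0, 142, 127 and 66.4 CPM in Veh+Veh. It was higher in Veh+BTC in 5 of 5 experiments, with overlapping groups and a difference of 0.62 (95% interval 0.11 to 1.13, limma adjusted p = 0.449), or 0.41 without experiment 1.

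Genes induced by ERK activity gave no call and lay on both sides of 0. Of 29 tested feedback and ERK-induced genes, 0 were called, with 1 higher and 3 lower at an unadjusted p under 0.05 (13.8% of the list), and the median difference was 0.02. DUSP6, the phosphatase that removes phosphate from ERK, was at 54.7, 153, 53.2, 161 and 32.8 CPM in Veh+BTC and at 502, 94.7, 98.8, 137 and 152 CPM in Veh+Veh. Veh+Veh 1 stood far above the other libraries, and DUSP6 was lower in Veh+BTC in experiments 1, 3 and 5 and higher in experiments 2 and 4. The DUSP6 difference was -1.06 (95% interval -1.93 to -0.20, limma adjusted p = 0.445), and it was -0.54 without experiment 1. DUSP4 and DUSP5, phosphatases of the same family that act in the nucleus, had differences of 0.06 (95% interval -0.37 to 0.49) and -0.04 (95% interval -0.50 to 0.43), both within 1 of 0.

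ETV4, a factor of the ETS family that ERK signalling induces, was at 27.9, 19.9, 43.4, 53.8 and 42.7 CPM in Veh+BTC, against 17.0, 15.1, 29.2, 41.7 and 18.3 CPM in Veh+Veh. ETV4 was higher in Veh+BTC in 5 of 5 experiments, the groups overlapped, and the difference was 0.63 (95% interval -0.05 to 1.31, limma adjusted p = 0.524). ETV5, its close relative, had a difference of 0.02 (95% interval -0.50 to 0.55). SPRED3, an inhibitor of RAS to RAF signalling, was at 10.5, 4.06, 7.68, 6.90 and 6.23 CPM in Veh+BTC and at 4.32, 2.47, 1.17, 5.86 and 2.00 CPM in Veh+Veh, higher in Veh+BTC in 5 of 5 experiments (difference 1.03, limma adjusted p = 0.458). In Veh+Veh 3 SPRED3 was at the floor of that library. SPRY2, a Sprouty inhibitor of receptor signalling, had a difference of 0.44 (95% interval -0.17 to 1.06). The interval of SPRY4, at 2.21 ± 1.19 CPM in Veh+BTC and 1.51 ± 1.97 CPM in Veh+Veh, was wider, from -0.38 to 1.51.

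Serum response factor had the smallest p among 21 tested AP-1 and immediate early genes. SRF binds the CArG box, and in quiescent cells that receive growth factor it drives transcription of immediate early genes such as EGR1 and of actin cytoskeleton genes. The 120 bases before the annotated start of SRF and of EGR1 are shown because both genes are targets through this box, SRF being known to act on its own promoter. The sequences are from RefSeq, build GRCh38.p14, + strand, chr6:43171149-43171268 for SRF and chr5:138465359-138465478 for EGR1, with CArG boxes in capitals.
SRF: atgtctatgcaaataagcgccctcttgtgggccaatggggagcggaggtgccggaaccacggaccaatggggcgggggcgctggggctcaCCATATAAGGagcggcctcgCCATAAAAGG
EGR1: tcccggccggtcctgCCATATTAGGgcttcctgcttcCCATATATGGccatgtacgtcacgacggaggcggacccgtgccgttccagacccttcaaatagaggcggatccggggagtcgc
Each window held 2 boxes, whose first bases lay 30 and 10 bases before the start in SRF and 105 and 83 bases before it in EGR1. The box was searched by its name's standard consensus, which reads the same on both strands. Of 35116 promoters, 233 (0.664%) held a box in the same 120 bases. That share is background and no test, since both genes were chosen as known targets. A second annotated start of SRF held 0 in its window. A match describes these letters and shows no binding.

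SRF was at 265, 204, 250.3, 337 and 109.8 CPM in Veh+BTC, against 451, 374, 553, 323 and 307 CPM in Veh+Veh. It was lower in Veh+BTC in 4 of 5 experiments and about level in experiment 4, and Veh+BTC 4 lay above both Veh+Veh 4 and Veh+Veh 5. The difference was -0.84 (95% interval -1.29 to -0.39, unadjusted p = 0.000641, limma adjusted p = 0.445). EGR1 was at 27.9, 67.5, 20.1, 50.7 and 16.2 CPM in Veh+BTC and at 64.2, 36.0, 55.3, 51.0 and 52.5 CPM in Veh+Veh, with a difference of -0.67 (95% interval -1.36 to 0.03, limma adjusted p = 0.51). Its Veh+BTC libraries spread on both sides of the Veh+Veh libraries. Over the 21 genes, 0 were called, with 0 higher and 2 lower at an unadjusted p under 0.05 (9.52% of the list), and the median difference was -0.44 against -0.02 over all genes tested. By experiment that median was -0.52, 0.20, -0.62, 0.13 and -0.89 in experiments 1 to 5, so its sign differed between experiments. JUN, a subunit of AP-1, had a difference of -0.44 (95% interval -0.84 to -0.04). FOSL1, another AP-1 subunit, had a difference of -0.13 (95% interval -0.66 to 0.40), and MYC, at 3.84 ± 2.497 CPM in Veh+BTC and 5.63 ± 2.11 CPM in Veh+Veh, one of -0.56 (95% interval -1.47 to 0.36).

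Cell cycle transcripts showed no difference that passed the test. CCND1, the D-type cyclin that growth factors induce, was at 379, 339, 386, 371 and 165 CPM in Veh+BTC and at 759.8, 349, 365, 412 and 325 CPM in Veh+Veh. Veh+BTC 5 was the lowest of the 10 libraries and Veh+Veh 1 the highest, with the others close together, and the difference was -0.42 (95% interval -0.91 to 0.07, limma adjusted p = 0.553). It was -0.27 without experiment 1 and -0.63 without Veh+BTC 4. CDKN1B, which encodes the CDK inhibitor p27, was at 67.3, 198, 45.8, 41.9 and 44.0 CPM in Veh+BTC and at 174, 208, 67.7, 43.0 and 104 CPM in Veh+Veh. It was lower in Veh+BTC in 5 of 5 experiments, by a wide margin in experiments 1 and 5 and by a narrow one in experiments 2 and 4 (difference -0.65, 95% interval -1.11 to -0.19, limma adjusted p = 0.445). Of 25 tested G1 cyclins, CDK inhibitors and E2F genes, 0 were called, with 0 higher and 7 lower at an unadjusted p under 0.05 (28% of the list, against 10.2% of all genes tested), and the median difference was -0.18. In experiments 1 to 5 the list median was -0.94, 0.01, -0.20, 0.04 and -0.60. CDK2, the kinase of the G1 to S transition, was lower in Veh+BTC in 3 of 5 experiments, with a difference of -0.93 (95% interval -1.66 to -0.20).

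Replication and mitosis genes lay on both sides of 0. MKI67, the nuclear protein used as a proliferation marker, was at 292, 349, 52.6, 53.6 and 137 CPM in Veh+BTC and at 193, 402, 54.5, 45.4 and 112 CPM in Veh+Veh. Levels of MKI67 differed more between experiments than between the libraries of an experiment, and the difference was 0.17 (95% interval -0.28 to 0.62, limma adjusted p = 0.82). Of 37 tested replication genes 0 were called, with 2 higher and 2 lower at an unadjusted p under 0.05 (10.8% of the list), and the median difference was -0.002. FEN1, the flap endonuclease of lagging strand synthesis, had a difference of -0.97 (95% interval -1.65 to -0.30), while POLD1, the catalytic subunit of DNA polymerase delta, had one of 0.63 (95% interval 0.09 to 1.18) and was higher in Veh+BTC in 5 of 5 experiments. Helicase subunits differed in sign, with -0.63 for MCM2 and 0.47 for MCM5. Of 38 tested mitosis and spindle genes 0 were called, with 0 higher and 2 lower (CCNB2 and KIF20A) at an unadjusted p under 0.05 (5.26% of the list), and the median difference was -0.08.

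Collagen transcripts gave no call, and the intervals of COL1A1 and COL3A1, but not that of COL1A2, lay within 1 of 0. COL1A1, a chain of type I collagen and the main product of scar-forming stellate cells, was at 956, 1500.3, 758, 359.9 and 1168 CPM in Veh+BTC and at 1053, 2052, 587, 333 and 1515 CPM in Veh+Veh. Levels differed more between experiments than within them, and the difference was -0.10 (95% interval -0.56 to 0.36, limma adjusted p = 0.91). COL1A2, the other chain of type I collagen, averaged 29.9 ± 24.9 CPM in Veh+BTC and 50.2 ± 29.5 CPM in Veh+Veh (SD, n = 5 each), with a difference of -0.74 (95% interval -1.60 to 0.12). COL3A1, the type III chain, had a difference of -0.29 (95% interval -0.84 to 0.26). Of 18 tested collagens 0 were called, with 0 higher and 2 lower at an unadjusted p under 0.05 (11.1% of the list), and the median difference was -0.15. COL12A1, a collagen that associates with fibrils, was at 18.0, 123, 22.8, 22.6 and 11.6 CPM in Veh+BTC and at 135, 64.8, 51.4, 19.1 and 46.2 CPM in Veh+Veh, with Veh+BTC 2 high among its group.

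Other matrix genes included the widest difference of any list. CCN1, a matricellular protein and a target of both SRF and YAP, was at 21.4, 1170.1, 674, 674 and 25.1 CPM in Veh+BTC and at 1336, 586, 2452, 748 and 721 CPM in Veh+Veh. It was far lower in Veh+BTC in experiments 1 and 5, lower in experiment 3, about level in experiment 4 and higher in experiment 2. The difference was -2.34 (95% interval -3.84 to -0.85, limma adjusted p = 0.445), and it was -1.45 without experiment 1 and -3.17 without experiment 2. SPARC, a secreted collagen-binding protein, was at 180.4, 1002, 434, 273 and 285 CPM in Veh+BTC and at 586, 996, 627, 275 and 1024 CPM in Veh+Veh, with a difference of -0.81 (95% interval -1.30 to -0.32, limma adjusted p = 0.445). Its levels were alike within experiments 2 and 4. FN1, which encodes fibronectin, was lower in Veh+BTC in 4 of 5 experiments, with a difference of -0.43 (95% interval -0.76 to -0.10), and NID2, a basement membrane protein, had one of -1.22 (95% interval -1.96 to -0.47). Of 30 tested noncollagen matrix genes 0 were called, with 0 higher and 6 lower at an unadjusted p under 0.05. These 6 were 20% of the list, against 10.2% of all genes tested. The median difference was -0.15, and by experiment it was -0.79, 0.08, -0.12, 0.13 and -0.37 in experiments 1 to 5.

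Proteases, their inhibitors and the plasminogen system gave no call. TIMP1, the inhibitor of matrix metalloproteinases that activated stellate cells secrete, averaged 399 ± 158 CPM in Veh+BTC and 407 ± 192 CPM in Veh+Veh (SD, n = 5 each), with a difference of 0.01 (95% interval -0.45 to 0.46). MMP1, the interstitial collagenase, was at 424, 28.6, 23.3, 171 and 104 CPM in Veh+BTC and at 237, 28.0, 13.2, 159.5 and 79.3 CPM in Veh+Veh, higher in Veh+BTC in 5 of 5 experiments, with a difference of 0.43 (95% interval -0.36 to 1.21, limma adjusted p = 0.724). PLAU, the urokinase plasminogen activator, was at 2.28, 29.9, 17.1, 76.9 and 1.66 CPM in Veh+BTC and at 105, 7.42, 53.3, 61.6 and 43.1 CPM in Veh+Veh. Experiments 1 and 5 had PLAU low in Veh+BTC and experiments 2 and 4 had it higher, and the interval ran from -3.26 to -0.13.

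The contractile and TGF-beta genes of activated stellate cells gave no call. ACTA2, the smooth muscle actin that marks activation, was at 49.0, 36.3, 101, 39.3 and 82.2 CPM in Veh+BTC and at 39.4, 72.5, 169, 57.7 and 101 CPM in Veh+Veh, lower in Veh+BTC in 4 of 5 experiments (difference -0.45, 95% interval -1.13 to 0.23, limma adjusted p = 0.658). TAGLN, the actin-binding protein transgelin, was lower in Veh+BTC in 5 of 5 experiments (difference -0.56, 95% interval -1.08 to -0.04), whereas FLNA, the actin crosslinker filamin A, was higher in 4 of 5 (difference 0.57, 95% interval 0.05 to 1.09). Of 22 tested contractile and activation genes 0 were called, with 1 higher and 4 lower at an unadjusted p under 0.05. They were 22.7% of the list, against 10.2% of all genes tested. The median difference was -0.05, and by experiment it was -0.10, 0, 0.15, -0.17 and -0.30 in experiments 1 to 5. TGFB1, the main fibrogenic cytokine, had a difference of -0.05 (95% interval -0.73 to 0.63). TGFB2, a ligand of the same receptors, was at 9.98, 33.7, 42.3, 1.90 and 3.74 CPM in Veh+BTC and at 7.69, 24.7, 16.3, 0.651 and 2.57 CPM in Veh+Veh. TGFB2 was higher in Veh+BTC in 5 of 5 experiments, although its level varied more between experiments than within them, with a difference of 0.66 (95% interval -0.07 to 1.39, limma adjusted p = 0.537), and it was 0.37 without Veh+BTC 3. In Veh+Veh 4 TGFB2 was at the floor of 3 reads. ID3, a target of BMP and TGF-beta signalling, had a difference of -1.04 (95% interval -1.76 to -0.32).

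**Figure D2:**
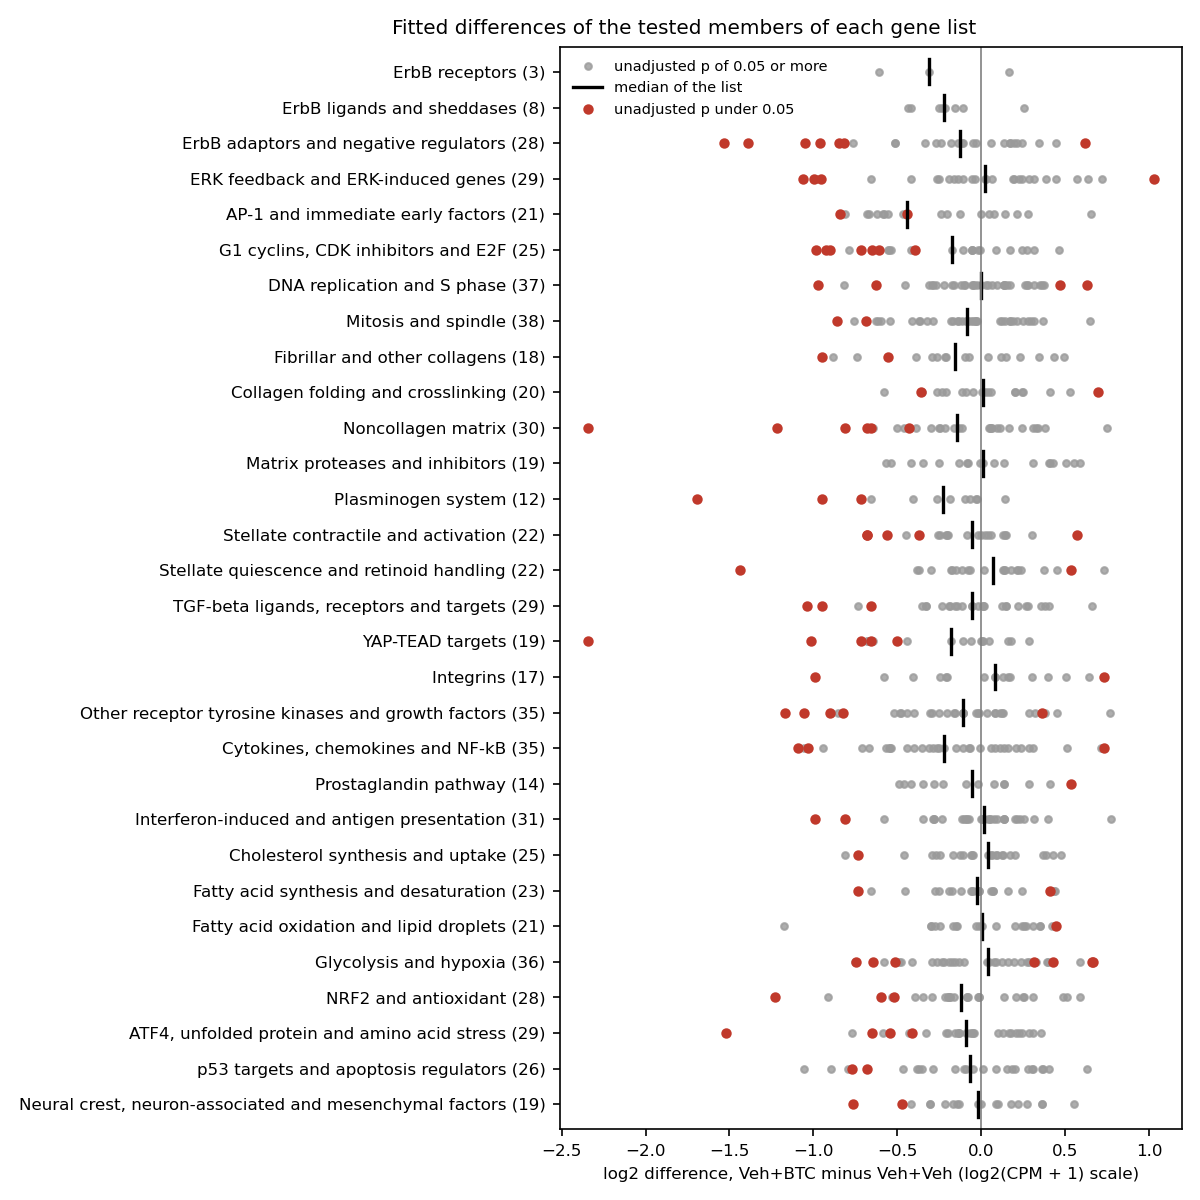
Fitted log2 difference, Veh+BTC minus Veh+Veh, of each tested member of 30 gene lists, with the number tested in brackets, the list median as a black bar and members at an unadjusted p under 0.05 in red. Medians lie between -0.44 (immediate early factors) and 0.08 (integrins), and no member passed the adjusted test.

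Across all 30 lists, 701 genes were tested and 0 were called. The share of a list at an unadjusted p under 0.05 ran from 0% to 28%, against 10.2% of all genes tested. In the metabolic lists SCD, the stearoyl-CoA desaturase, had a difference of -0.74 (95% interval -1.30 to -0.17), and FADS1, the delta-5 desaturase, one of 0.41 (95% interval 0.09 to 0.73). FADS1 was higher in Veh+BTC in 5 of 5 experiments, and HADHA, of mitochondrial fatty acid oxidation, likewise (difference 0.44, 95% interval 0.05 to 0.83). In the stress lists SLC3A2, an amino acid transporter chain and ATF4 target, was lower in 5 of 5 experiments (difference -0.54, 95% interval -0.92 to -0.17). MT1E, a metallothionein with near-identical family members, was also lower in 5 of 5 (difference -0.60). Its differences in experiments 1 to 5 were -1.715, -0.054, -0.067, -0.026 and -1.138, about level in experiments 2, 3 and 4. ITGB1, the beta-1 integrin chain, was higher in 5 of 5 experiments (difference 0.73, 95% interval 0.21 to 1.26).

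The 20 genes with the smallest p, 10 in each direction, are given as a description without a claim of change, since a set chosen for small p contains large differences by construction. Among the higher ones, RN7SL1, the RNA of the signal recognition particle, was at 5.13, 14.0, 83.3, 5.00 and 4.57 CPM in Veh+BTC and at 1.79, 3.57, 3.11, 3.91 and 0.856 CPM in Veh+Veh. These levels came from 18, 76, 282, 21 and 22 reads in Veh+BTC and from 17, 13, 8, 18 and 3 reads in Veh+Veh. Veh+Veh 5 was thus at its floor, and the separation of the groups rests on few reads outside Veh+BTC 2 and Veh+BTC 3. Veh+BTC 3 stood apart, all 5 Veh+BTC libraries lay above all 5 Veh+Veh libraries, and the difference was 1.82 (95% interval 0.87 to 2.77, limma adjusted p = 0.445), or 1.18 without experiment 3. DESeq2 called this gene at an adjusted p of 0.0255 with a log2 fold change of 2.63, and edgeR gave an adjusted p of 0.544. RN7SL1 has near-identical copies, so its reads may be divided among them. How far a kit that reads near a polyadenylated end records such a structural RNA was not tested. RNU4ATAC, a small nuclear RNA of the minor spliceosome, was at 8.55, 45.2, 159, 11.9 and 4.36 CPM in Veh+BTC and at 4.85, 5.77, 49.8, 6.08 and 0.285 CPM in Veh+Veh, higher in Veh+BTC in 5 of 5 experiments (difference 1.61). Its value in Veh+Veh 5 lay below the floor of that library, 0.856 CPM. MT-RNR1, the mitochondrial small ribosomal RNA, was at 604, 582, 1177, 712 and 510.1 CPM in Veh+BTC and at 438, 376, 565, 677 and 291 CPM in Veh+Veh (difference 0.61, 95% interval 0.29 to 0.92).

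Structural noncoding RNAs were summed as a class because 3 of the 10 higher genes belong to it. This choice was made after their values were seen. The class comprised signal recognition particle, 7SK, small nuclear, small nucleolar, small Cajal body, Y, vault, RNase MRP, RNase P and mitochondrial ribosomal RNAs. It held 2427 of the 61597 genes deposited, and its share of the genes tested was not computed. The count of 3 in 10 is therefore a description and no enrichment. Over 2427 such genes the level was 4694 ± 2134 CPM in Veh+BTC and 3111 ± 678 CPM in Veh+Veh (SD, n = 5 each), higher in Veh+BTC in 5 of 5 experiments. The exact two-sided sign-flip permutation test gave p = 0.0625, the smallest it can give with 5 pairs, and an adjusted p of 0.438 over 7 library measures. The sum includes the 3 genes that prompted it, so this p is a description and no independent test. Veh+BTC 3 reached 8424 CPM, and the other Veh+BTC libraries ran from 3065 to 4250 CPM. Replication-dependent histone genes, whose transcripts mostly end without a poly(A) tail, summed to 858 ± 974 CPM in Veh+BTC and 452.0 ± 220.0 CPM in Veh+Veh (exact permutation p = 0.25). The share of reads from mitochondrially encoded genes was 3.14 ± 0.855% in Veh+BTC and 2.65 ± 0.504% in Veh+Veh (exact permutation p = 0.1875). This share includes MT-RNR1 and the other mitochondrial ribosomal RNA, which the structural noncoding sum also holds, so both measures overlap. Whether these library measures had a part in the values of single genes, and how far the 3′ tag kit records structural noncoding RNAs, was not tested.

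Protein-coding genes made up the rest of the higher set. EIF3A, a subunit of the translation initiation factor eIF3, was at 129, 134, 70.9, 15.0 and 19.5 CPM in Veh+BTC and at 65.0, 78.3, 17.1, 13.7 and 8.56 CPM in Veh+Veh, with levels that differed widely between experiments (difference 0.99, 95% interval 0.48 to 1.50). SARS1, the cytoplasmic seryl-tRNA synthetase, was at 116, 84.1, 158, 94.3 and 88.2 CPM in Veh+BTC and at 52.7, 72.5, 71.6, 94.9 and 46.5 CPM in Veh+Veh (difference 0.67, 95% interval 0.32 to 1.02). PAPSS2, which makes the sulfate donor for proteoglycan sulfation, was at 18.8, 9.59, 14.5, 5.24 and 11.4 CPM in Veh+BTC and at 7.48, 7.14, 4.67, 1.30 and 5.99 CPM in Veh+Veh, higher in 5 of 5 experiments. BRD9, a subunit of a chromatin remodelling complex, averaged 273 ± 45.7 CPM in Veh+BTC and 184 ± 41.1 CPM in Veh+Veh (SD, n = 5 each), likewise in 5 of 5. DHTKD1, of lysine catabolism in mitochondria, and PIGM, of GPI anchor synthesis, were higher in 5 of 5, and ZNF791, a zinc finger gene, in 4 of 5.

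Among the lower ones, SEL1L3 had the smallest p of all genes tested at 0.000149, and its adjusted p was 0.445. SEL1L3 was at 88.4, 50.5, 21.3, 44.5 and 11.2 CPM in Veh+BTC and at 265, 91.7, 62.7, 38.9 and 35.1 CPM in Veh+Veh, with Veh+Veh 1 the highest and experiment 4 in the opposite direction. WDR53, a WD repeat protein, was at 1.71, 4.06, 1.77, 1.19 and 0.623 CPM in Veh+BTC and at 7.48, 8.51, 6.62, 3.26 and 6.56 CPM in Veh+Veh, lower in 5 of 5 experiments (difference -1.44, 95% interval -2.16 to -0.72). In Veh+BTC 5 WDR53 was at the floor of that library. GLRX, a glutaredoxin that reduces protein disulfides, was at 4.85, 14.2, 9.75, 11.9 and 2.91 CPM in Veh+BTC and at 31.4, 22.2, 29.2, 15.6 and 12.0 CPM in Veh+Veh, lower in 5 of 5 (difference -1.33, 95% interval -2.03 to -0.64). ARHGEF10L, a guanine nucleotide exchange factor, averaged 55.3 ± 20.8 CPM in Veh+BTC and 93.4 ± 11.6 CPM in Veh+Veh (SD, n = 5 each), and overlapped only through Veh+BTC 4. DCPS, the scavenger decapping enzyme, MTRES1, of mitochondrial transcription, and EEF1AKMT2, a methyltransferase of elongation factor 1A, were lower in 5 of 5 experiments, and NGDN and FAM83D, a spindle protein, in 4 of 5. Of the 10 lower genes 0 had groups that did not overlap, and of the 10 higher genes 1 did, against 0.106% and 0.112% of all genes tested, a comparison that the choice of the genes fixes.

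**Figure D3:**
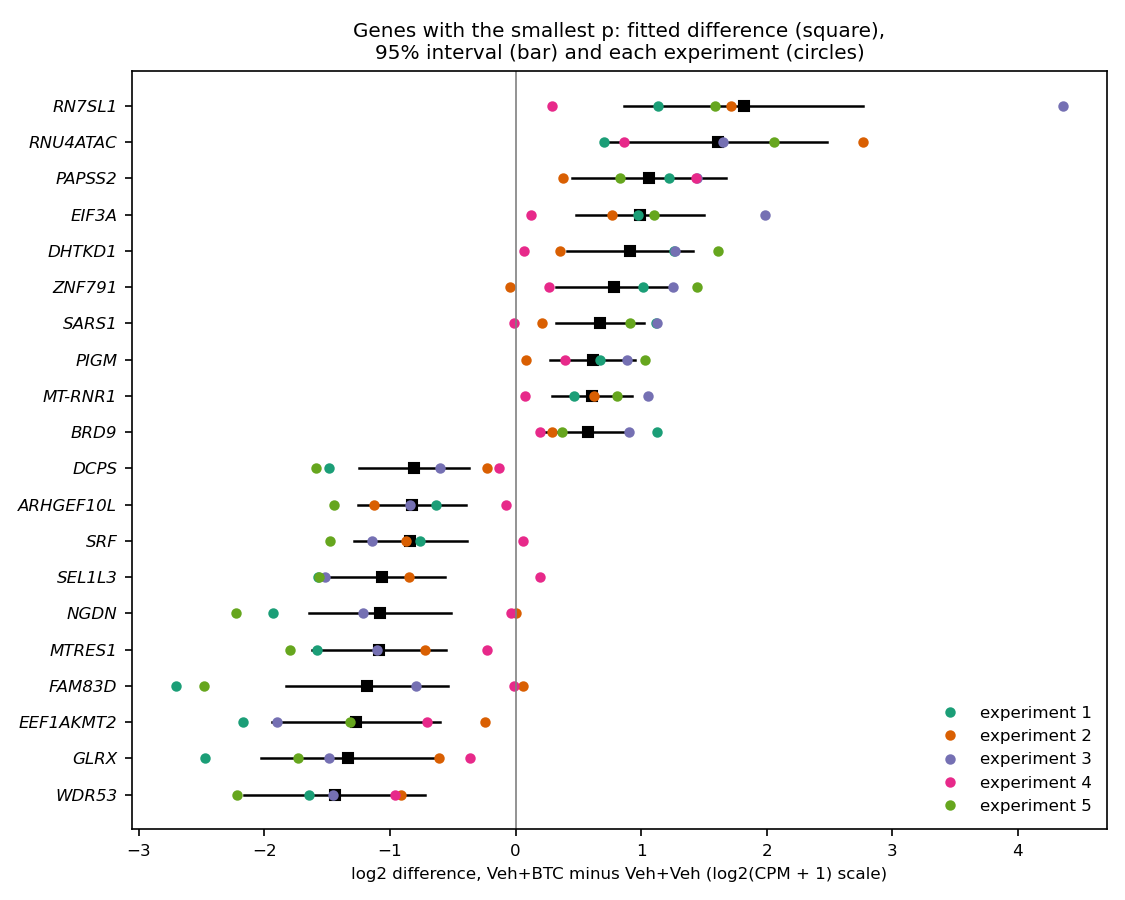
Log2 difference, Veh+BTC minus Veh+Veh, for the 20 genes with the smallest p: the square is the fitted value, the bar its 95% interval from limma and each circle an experiment. Experiment 4 lies nearest 0 for 13 of the 20 genes, experiment 3 lies far out for RN7SL1, and the bars leave 0 outside because the genes were chosen for small p.

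The size of the difference between partner libraries varied between experiments. Over 6237 genes with a mean of at least 20 CPM, the SD of the log2 difference across genes was 1.04, 0.453, 0.651, 0.268 and 0.885 in experiments 1 to 5. The share of genes that differed by more than 1 was 27%, 3.8%, 11.7%, 0.305% and 21.5%. Experiment 4 thus held nearly equal libraries, and experiments 1 and 5 the most unequal. Between experiments the differences correlated with r from -0.517 to 0.732 across genes, positive in 4 of 10 pairs of experiments. Experiments 1 and 5 gave the highest r and experiments 1 and 2 the lowest. These correlations are a description: genes are not independent replicates, and each experiment contributes a single library per group. The count of genes at an unadjusted p under 0.05 moved accordingly, to 606 without experiment 1, 2343 without experiment 2, 958 without experiment 3, 2088 without experiment 4 and 751 without experiment 5, each with 0 called. Without experiment 1 the balance turned, with 368 higher and 238 lower, and without experiment 5 there were 383 higher and 368 lower.

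**Figure D4:**
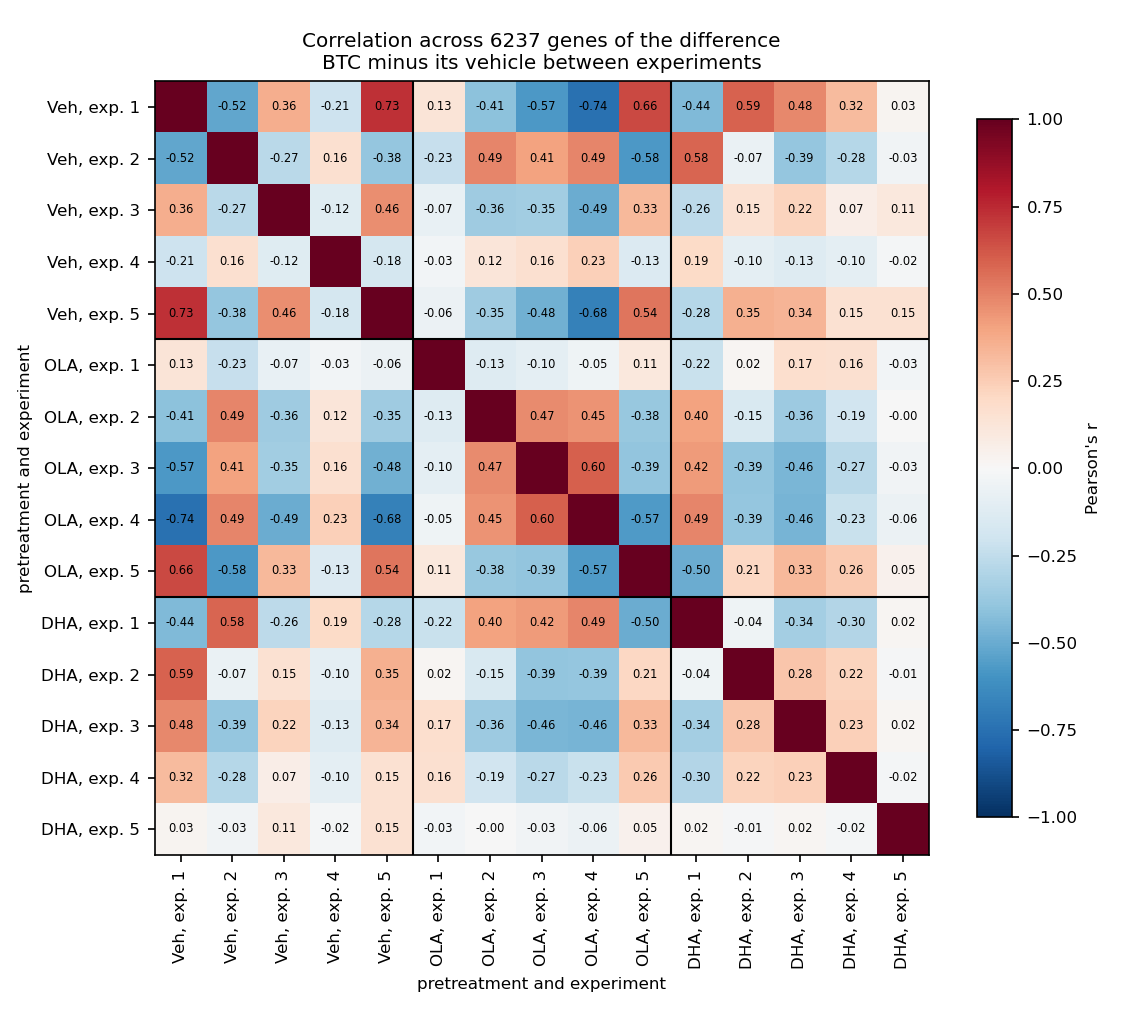
Pearson's r across 6237 genes between the log2 differences, BTC minus its vehicle, of each pair of experiments after vehicle (Veh), oleic acid (OLA) or DHA pretreatment. Within the Veh block experiments 1, 3 and 5 correlate positively with each other. Experiments 2 and 4 correlate negatively with those 3 and positively with each other (r = 0.159). Both signs also occur within and between the other blocks.

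The BTC response after a fatty acid was tested against the response to BTC alone. After OLA, BTC called 0 of 15137 genes (0%), with 299 (1.98%) at an unadjusted p under 0.05, and after DHA it called 0 (0%), with 629 (4.16%). The difference between the response after OLA and the response alone called 0 genes (0%), with 1279 (8.45%) at an unadjusted p under 0.05, and that for DHA called 0 (0%), with 527 (3.48%). Both differences between responses contain the Veh+BTC and Veh+Veh libraries, on which the 20 genes of smallest p were chosen, so their values for those genes are a description. Of the 20 genes with the smallest p, 4 had the same sign after OLA as alone and 16 the same sign after DHA. Over all genes tested, 48.25% had a positive difference after OLA and 43.69% after DHA. The share of all genes with the same sign as alone was not computed. Genes also vary together between experiments, so neither count is a result about the response. RNU4ATAC, at 1.61 alone, was at -1.12 after OLA (95% interval -1.99 to -0.25) and at 0.60 after DHA (95% interval -0.27 to 1.47). Its interaction with OLA had the smallest unadjusted p of that test, 8.25e-05, and an adjusted p of 0.584. SRF, at -0.84 alone, was at -0.06 after OLA (95% interval -0.51 to 0.39) and 0.01 after DHA (95% interval -0.44 to 0.46).

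EGFR and genes named from other lists are given side by side over the 3 pretreatments. EGFR had differences of -0.31 after vehicle, -0.08 after OLA and 0.03 after DHA. CCND1 had differences of -0.42 after vehicle, 0.03 after OLA and 0.04 after DHA. COL1A1 had differences of -0.10 after vehicle, 0.03 after OLA and -0.09 after DHA. TAGLN was lower with BTC in 5 of 5 experiments after each of the 3 pretreatments, though by only -0.016 in experiment 1 after OLA. It is named here for that shared direction, so this is a description. TGFB2 was higher in 5 of 5 experiments after vehicle and lower in 5 of 5 after OLA, where the difference was -0.95 (95% interval -1.68 to -0.22), and the interaction had an unadjusted p of 0.00327 and a limma adjusted p of 0.584.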

How the data were processed

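The 30 LX2 libraries were made with a QuantSeq 3′ FWD kit, per the labels' protocols. The submitters' processing notes name STAR 2.5.3a for alignment and HTSeq 0.6.0 for counting. The build, annotation and strand setting are not given in the sources used here. Overlapping, antisense and near-identical genes may therefore share reads. The authors deposited CPM for 61597 genes, each library scaled to 1000000. The reads recovered from the CPM steps were whole, within 0.01 read, for 100% of values.

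Differences were tested with limma 3.58.1 (trend, two-sided) in R 4.3.3 on log2(CPM + 1). The filter kept 15137 genes that reached 1 CPM in 5 libraries or more. All 30 libraries entered 1 fit with group and experiment as terms and 20 residual degrees of freedom. Adjustment followed Benjamini and Hochberg over all genes tested, and calls were at an adjusted p under 0.05. Alternatives were edgeR 4.0.16 and DESeq2 1.42.0 on recovered reads, other scalings, pseudocounts and filters, and left-out libraries. The scripts were tested on simulated data. Library measures were compared with an exact sign-flip permutation test over 5 pairs.

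The pairing comes from the labels' cohort, which names the experiment. Deviations from the group means correlated from 0.284 to 0.53 in the 5 Veh+BTC and Veh+Veh pairs (median 0.468). Among all 30 libraries, those of a different experiment and group correlated from -0.743 to 0.696 (median -0.169). The ranges overlap, so the correlations alone do not establish the pairing.

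The gene lists and the rule for named genes were chosen with earlier results of these data known. With fewer than 5 calls in a direction, the rule names the 10 genes with the smallest p among symbol-bearing genes that averaged 5 CPM or more in either group and went 1 way in 4 or more of 5 experiments. It adds up to 4 members of each list with the smallest p and fixed ErbB, ERK, cell cycle and matrix genes. The text prints part of this pool, and some genes are not reported here. Intervals and floors cover 95% and 3 reads, and floors cover counting error only, since reads without molecular identifiers are not independent molecules.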

Additional observations from a re-analysis of the deposited data

Results flagged for a closer look

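A library that stood apart from the other 4 of its group was found in 11 of 190 groups of 5 checked, against about 1 in 20 by chance. DUSP6 was at 502 CPM in Veh+Veh 1, against 94.7 to 152 CPM in the other Veh+Veh libraries. CCND1 was at 165 CPM in Veh+BTC 5, against 339 to 386 CPM in the other Veh+BTC libraries, and at 760 CPM in Veh+Veh 1, against 325 to 412 CPM in the other Veh+Veh libraries. MCM5 was at 71.3 CPM in Veh+Veh 1, against 122 to 147 CPM in the others of that group. CCNB2 was at 152 CPM in Veh+BTC 2, against 42.1 to 60.5 CPM, and COL12A1 at 123 CPM in Veh+BTC 2, against 11.6 to 22.8 CPM. KIF20A was at 38.2 CPM in Veh+Veh 4, against 73.5 to 94.8 CPM, and WDR53 at 3.26 CPM in Veh+Veh 4, against 6.56 to 8.51 CPM. Veh+BTC 2 had 18238 genes with a count, against 16330 to 16858 in the other Veh+BTC libraries. Veh+BTC 3 had 8424 CPM of structural noncoding RNAs and 2578 CPM of histone genes, against 3065 to 4250 CPM and 203 to 579 CPM in the other Veh+BTC libraries.

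Some genes had 1 direction in 5 of 5 experiments with BTC alone and the other direction in 5 of 5 after a fatty acid. The response after OLA minus the response alone was -0.87 for MAPK3 (unadjusted p = 0.0194), -1.61 for TGFB2 (unadjusted p = 0.00327), -0.90 for PIGM and -0.77 for BRD9 on the log2 scale. The response after DHA minus the response alone was -0.70 for HADHA (unadjusted p = 0.0144). No limma adjusted p of these differences was under 0.584. PIGM, BRD9, MAPK3 and HADHA were named for a small p in the response alone, whose libraries these differences contain. TGFB2 was among the fixed genes. All were picked here for their opposite directions, so the unadjusted p-values are a description.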

How the results depend on the processing

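No gene was called in Veh+BTC over Veh+Veh, or in the difference between responses, under any alternative run except DESeq2, which called 1 gene (RN7SL1, higher). Of 88 genes followed, 873 of 877 values kept their sign under the 10 settings that left out no library, and 1288 of 1320 under the 15 that did. DUSP5 changed sign to 0.002 with DESeq2 and 0.012 under median-of-ratios scaling, and TGFB1 to 0.116 with edgeR and 0.138 with DESeq2; the cause was not tested. Over left-out libraries and experiments the log2 differences ran from -0.227 to 0.053 for COL1A1, -0.033 to 0.198 for DUSP4, -0.177 to 0.044 for DUSP5, -0.009 to 0.286 for ERBB2, -0.107 to 0.211 for ETV5, -0.234 to 0.076 for FOSL1, -0.255 to 0.20 for TGFB1 and -0.082 to 0.123 for TIMP1. The mean difference in reads ran from -1065000 to 876100 over left-out experiments, and that in genes with a count from -159 to 992.5.

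Genes at an unadjusted p under 0.05 numbered 1539, and 367 (93 higher and 274 lower) without the replicate block, with 0 called. They numbered 973 with only the 10 libraries, 606 to 2343 with an experiment left out, 688 to 2498 with a Veh+BTC library left out and 1018 to 1708 with a Veh+Veh library left out. Without Veh+BTC 1 the balance was 401 higher and 287 lower. The median half-width of the 95% interval was 0.641 over all genes tested and 0.548 over those with a mean of at least 5 CPM.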
